A study of Mus musculus with 7 samples.

Results

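Enzymes that build triglyceride and phospholipid from glycerol 3-phosphate were measured in the hearts of fasted wild-type and KLF15-null mice. Every probe set that the array's annotation gave to exactly 1 of 7 gene symbols was taken, the symbols being Gpam, Agpat1, Agpat2, Agpat3, Lpin1, Dgat1 and Dgat2. This gave 10 probe sets of 22626, for 6 of the 7 genes, and all 10 were bright enough to be tested. Agpat2 had no probe set of its own in the annotation used and was not analysed here. The rule uses no measured value, though the genes were proposed with earlier results of these data known.

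The members catalyse successive steps of the Kennedy pathway, in which fatty acids are attached one after another to glycerol 3-phosphate. Gpam codes for the mitochondrial glycerol-3-phosphate acyltransferase, which adds the first acyl chain, and the Agpat enzymes add the next to give phosphatidate. Lipin 1 removes the phosphate to give diacylglycerol, which is either made into phosphatidylcholine and phosphatidylethanolamine or acylated once more to triglyceride by Dgat1 or Dgat2. In a fasted heart, which takes up much fatty acid from the blood, this last step stores what is not oxidized at once.

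The 4 WT and 3 KLF15-null samples were whole hearts of C57/BL6 mice with a male label, aged 3 to 4 months, that had gone without food for 18 h. KLF15-null mice lack Krüppel-like factor 15, a zinc-finger transcription factor of heart, muscle and liver. The labels do not say how the allele was made or whether the WT mice were littermates. All mice were fasted, so no difference below can be set against the fed state. The labels do not say that each array was a separate animal, so the tests measure the spread between these arrays, whose number limits the precision. Where hearts are counted below, each is the sample of 1 array. Each value is a log2 signal of 1 probe set on 1 Affymetrix 3' array, and levels of different probe sets cannot be compared with each other.

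Array medians lay between 6.22 and 6.33. WT arrays correlated with each other at 0.995 to 0.997 (Pearson's r across probe sets), KLF15-null arrays at 0.986 to 0.993, and pairs across genotypes at 0.942 to 0.964. Bright probe sets were higher in KLF15-null hearts as a body, the brightest 10% of those tested having a median of 0.35 (every difference given is KLF15-null minus WT on the log2 scale). Klf15 differed by -2.54 (SE 0.13, limma adjusted p = 1.26e-06), with all 3 KLF15-null arrays below all 4 WT arrays. An exact permutation test (two-sided) gave p = 0.0286, which 35 splits of the arrays cannot go below. The data went against the male label: the brightest Xist probe set lay between 8.57 and 9.94 on the 7 arrays, while the Y-linked Eif2s3y lay between 3.49 and 3.68. The 9 cardiomyocyte markers all passed the filter, with Myh6 at 14.01 in WT and 14.22 in KLF15-null hearts. Only Nppa of the 9 was called, with a rise of 1.71 (limma adjusted p = 0.000909). The summed linear signals of the 9 overlapped (95200 to 107000 in WT against 103000 to 118000 in KLF15-null hearts).

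At the first acylation step the 2 probe sets of Gpam went apart. On probe set 1425834_a_at Gpam read 7.01, 6.96, 7.06 and 7.23 in the 4 WT hearts and 5.23, 5.73 and 5.62 in the 3 KLF15-null hearts. Every KLF15-null heart was below every WT heart there. WT hearts averaged 7.06 ± 0.12 (SD, n = 4) and KLF15-null hearts 5.53 ± 0.26 (SD, n = 3), a fall of 2.91-fold (difference -1.54, SE 0.12, limma adjusted p = 1.21e-05). The KLF15-null mean was below the brightness filter of 5.74 and the table has no detection calls, so background may limit the size of this fall. The suffix _a_at marks a probe set that matches several transcripts of a gene.

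On probe set 1419499_at Gpam was one of the brightest signals of the array, at the 97.8th percentile of the 7-array means, and the groups overlapped. It read 11.45, 11.43, 11.82 and 11.40 in WT and 11.52, 11.52 and 11.69 in KLF15-null hearts. The difference was 0.05 (95% interval -0.24 to 0.33, limma adjusted p = 0.775). Its direction depended on how arrays were scaled: quantile normalization turned it to -0.36 (adjusted p = 0.00305) and cyclic loess to -0.28 (adjusted p = 0.0197), both past the threshold of 0.05. Neither scaling ended the fall of 1425834_a_at, which was -1.48 and -1.49.

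RefSeq lists 2 starts for Gpam on chromosome 19, 27761 bases apart, and the annotation does not say which transcripts each probe set reads. The 250 bases before each start are shown because this is a transcription factor knockout and the 2 probe sets of the gene diverged. They are printed 5′ to 3′ on the gene's minus strand of GRCm38.p6, with capitals marking CACCC, the core of boxes that Krüppel-like factors bind, on either strand.
Gpam upstream start, chr19:55127239-55127488: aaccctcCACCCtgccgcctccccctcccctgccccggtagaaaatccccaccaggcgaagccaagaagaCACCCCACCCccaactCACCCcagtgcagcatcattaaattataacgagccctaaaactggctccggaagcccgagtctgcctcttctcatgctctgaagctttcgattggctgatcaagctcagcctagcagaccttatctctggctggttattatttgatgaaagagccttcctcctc
Gpam downstream start, chr19:55099478-55099727: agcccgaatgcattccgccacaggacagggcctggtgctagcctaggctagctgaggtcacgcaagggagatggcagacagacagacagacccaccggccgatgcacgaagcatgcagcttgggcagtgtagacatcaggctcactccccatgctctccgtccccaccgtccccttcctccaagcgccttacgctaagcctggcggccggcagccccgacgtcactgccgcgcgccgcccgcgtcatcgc
The window of the upstream start, searched together with the 50 bases after the start, held 4 CACCC matches, all on the gene's own strand, beginning 243, 180, 175 and 164 bases before it. Of all 32851 RefSeq windows of the same length, 57.5% held at least 1 match and 3.10% held 4 or more. The downstream window held 0 matches to CACCC and 1 to GGGCGG, the GC box, which 35.7% of all windows hold. Of the members, 4 genes had windows, 6 in all, and CACCC was found in 3 of the 6. The 2 matches of Lpin1 lay 235 and 33 bases before its start, and the match of the first Agpat1 window lay after the start. The sterol response element TCACNCCAC was in 0 of the 6 and in 1.24% of all windows. Dgat1 and Dgat2 were among the members without a window. A match describes the letters of a window and is not evidence that a factor binds there.

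At the second acylation step none of the 3 probe sets of the Agpat genes, which code for acyltransferases of lysophosphatidate, passed the threshold. Agpat1 on probe set 1421025_at read 8.18, 7.97, 7.86 and 8.11 in WT and 7.68, 7.97 and 7.78 in KLF15-null hearts. The groups overlapped, 1 KLF15-null heart being as high as a WT heart, and the difference was -0.22 (95% interval -0.48 to 0.04, limma adjusted p = 0.143). It passed the threshold with array weights, at -0.26 (adjusted p = 0.0268). Agpat1 on probe set 1421024_at read 7.33 in 3 WT hearts and 7.34 in the other, against 7.12, 7.45 and 7.31 in KLF15-null hearts, a difference of -0.04 (95% interval -0.25 to 0.18). Values repeated between arrays to the last digit are common in this table and occurred in 47.3% of all probe sets, so a very small SD there is no measure of precision.

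Agpat3 read 9.43, 9.55, 9.67 and 9.08 in WT and 9.90, 8.92 and 9.46 in KLF15-null hearts. The KLF15-null values lay on both sides of the WT range, with an SD of 0.49 (n = 3) against 0.26 (n = 4). The difference was -0.00 with a 95% interval of -0.50 to 0.50, the widest of the members, which as a ratio of KLF15-null to WT spans 0.705 to 1.41. Without KLF15-null replicate 2, the lowest, it was 0.25, and without replicate 1, the highest, it was -0.24.

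Lpin1, which codes for the phosphatidate phosphatase of muscle and fat and also acts with Ppara and Ppargc1a as a coactivator of fatty acid oxidation genes, did not pass the threshold on either probe set. Probe set 1426516_a_at read 9.22, 9.64, 9.63 and 9.37 in WT and 9.75, 9.63 and 9.14 in KLF15-null hearts, and 1418288_at read 8.94, 9.17, 9.37 and 8.92 against 9.19, 9.43 and 8.97. The groups overlapped on both. The differences were 0.04 (95% interval -0.34 to 0.42, limma adjusted p = 0.858) and 0.10 (95% interval -0.24 to 0.44, limma adjusted p = 0.622), which as ratios span 0.789 to 1.34 and 0.844 to 1.35. After quantile normalization both were below 0, at -0.14 and -0.04.

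At the last step, the acylation of diacylglycerol, Dgat2 gave the largest fall of the members on one probe set and no detected difference on the other. On probe set 1422677_at Dgat2 read 10.16, 10.29, 10.41 and 10.08 in WT and 8.39, 8.37 and 7.97 in KLF15-null hearts. All KLF15-null hearts were below all WT hearts, and both groups were well above the filter level. The means were 10.24 ± 0.15 (SD, n = 4) and 8.24 ± 0.23 (SD, n = 3), a fall of 3.99-fold (difference -1.99, SE 0.14, limma adjusted p = 5.31e-06). Across the alternatives run for it the difference stayed between -2.19 and -1.86.

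On probe set 1422678_at, which the annotation ties to the same source sequence, Dgat2 read 10.79, 10.87, 11.02 and 10.56 in WT and 10.98, 10.25 and 10.95 in KLF15-null hearts. Here 2 KLF15-null hearts were within the WT range and the other was below it. The difference was -0.09 (95% interval -0.51 to 0.34, limma adjusted p = 0.731). Quantile normalization moved it to -0.45, past the threshold (adjusted p = 0.0233), and cyclic loess to -0.36 (adjusted p = 0.0534). Without KLF15-null replicate 2 it was 0.15.

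Dgat1, the other and unrelated diacylglycerol acyltransferase, read 7.31, 7.32, 7.31 and 7.28 in WT and 7.25, 6.86 and 7.47 in KLF15-null hearts. The KLF15-null values spread around the narrow WT range, the lowest again being replicate 2. The difference was -0.11 (95% interval -0.41 to 0.19, limma adjusted p = 0.513), and it was 0.06 without that replicate. Its only probe set has the suffix _s_at, which marks probes shared between transcripts that may come from different genes.

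**Figure D1:**
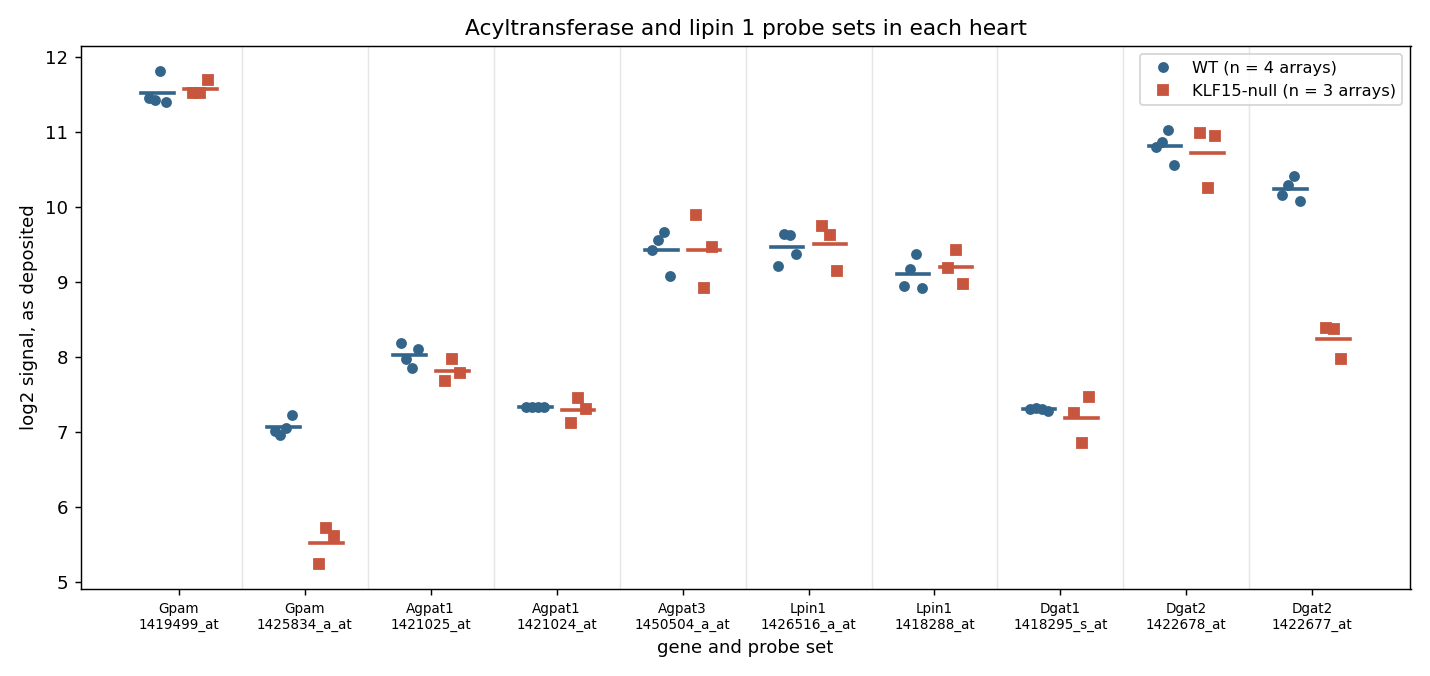
Log2 signal (vertical axis) of the 10 probe sets (horizontal axis) in each heart; circles are the 4 WT and squares the 3 KLF15-null arrays, and bars are group means. The groups are apart for Gpam 1425834_a_at and Dgat2 1422677_at and overlap for the other 8.

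Counted together, 2 of the 10 member probe sets were lower, 0 were higher and 8 missed the threshold, where 23.8% of the 13576 probe sets tested were lower, 26.8% higher and 50.6% were called in either direction. The share of members that fell was therefore near that of the whole array. The 2 that fell were also the only 2 without overlap between the groups, which 53.0% of all probe sets tested showed. The median difference was -0.06 for the members and 0.00 for all probe sets tested. In size, 2.72% of all probe sets tested were lower by at least as much as Gpam 1425834_a_at, and 1.10% had a difference below that of Dgat2 1422677_at. Both cutoffs are the members' own falls, the largest of the 10, so these shares describe the 2 falls and test nothing. The 8 others lay between -0.22 and 0.10. After quantile normalization 4 member probe sets were lower (25.7% of all) and with cyclic loess 3 (26.9% of all). Under each 0 were higher (27.2% and 25.9% of all).

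**Figure D2:**
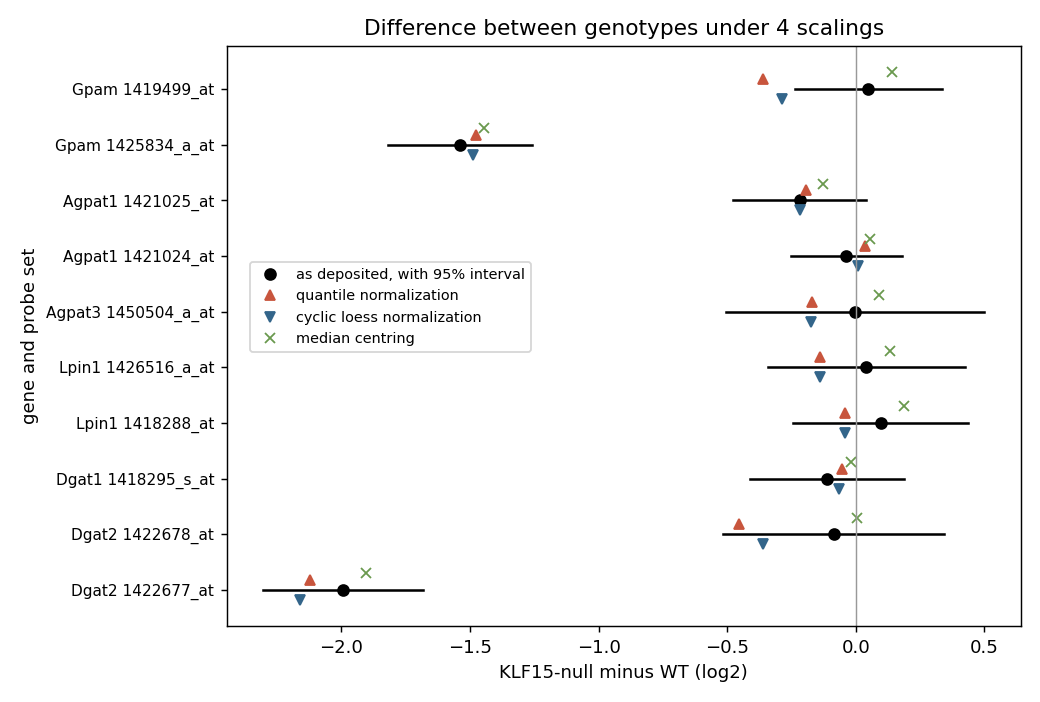
KLF15-null minus WT difference on the log2 scale (horizontal axis) for each member probe set (vertical axis), as deposited with its 95% interval from limma and after 3 other scalings. The falls of -1.54 and -1.99 stand away from 0 under every scaling shown, while the bright probe sets of Gpam and Dgat2 move to -0.36 and -0.45 after quantile normalization.

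Since a gene's probe sets share the tissue and the array, the divergence was tested on the gap between them within each heart. For Dgat2 the brighter probe set exceeded the dimmer one by 0.48 to 0.63 in WT and by 1.88 to 2.97 in KLF15-null hearts, a widening of 1.91 (SE 0.22). For Gpam the gap was 4.17 to 4.76 in WT and 5.79 to 6.28 in KLF15-null hearts, a widening of 1.59 (SE 0.17). Such a gap keeps any group difference that varies with brightness. Probe sets in the same 10% band of brightness had median differences of 0.35 for Gpam 1419499_at and -0.05 for 1425834_a_at. Those for Dgat2 were 0.35 for 1422678_at and 0.19 for 1422677_at. Quantile and cyclic loess normalization gave widenings of 1.12 and 1.20 for Gpam, and 1.67 and 1.80 for Dgat2. The part of brightness in the widenings was not tested. The gaps of Agpat1 and Lpin1 changed by -0.18 (95% interval -0.46 to 0.10) and -0.06 (95% interval -0.36 to 0.25). The exact two-sided permutation p was 0.0286 for both Dgat2 and Gpam, 0.114 for Agpat1 and 0.714 for Lpin1. Adjusted over the 4 genes the first pair was at 0.0571, above the threshold, and 35 splits allow no smaller p than 0.0286. A limma fit over all 1880 genes with 2 probe sets, added after the data were seen, gave adjusted p of 3.41e-05 for Dgat2 and 2.16e-05 for Gpam.

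Such divergence was common on these arrays. Of the 1880 genes the same fit called 67.2% as having gaps that differ between the groups. In 443 of them (23.6%) one probe set was lower and the other not past the threshold, as for Gpam and Dgat2, and in 275 (14.6%) the 2 probe sets were called in opposite directions. A gap change at least as wide as that of Dgat2 was found in 6.17% and as that of Gpam in 12.1%. Among the 899 genes whose 2 probe sets are tied to the same source sequence, as for Dgat2, 26.6% had one lower and the other not past the threshold. Whether the probe sets of Dgat2 and Gpam read different transcripts of these genes was not tested.

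**Figure D3:**
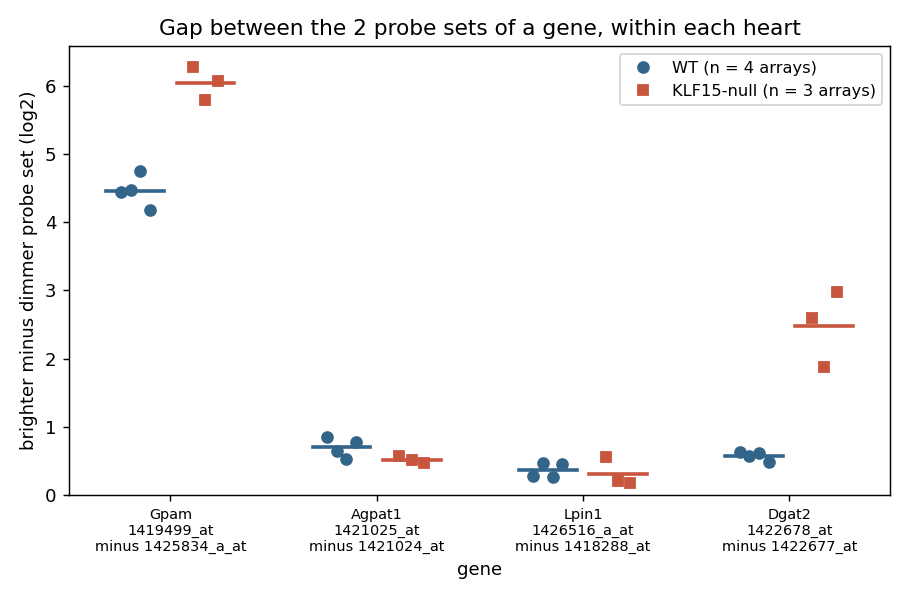
Brighter minus dimmer probe set on the log2 scale (vertical axis) within each heart for the 4 member genes with 2 probe sets (horizontal axis); circles are WT and squares KLF15-null arrays, and bars are group means. The gaps of Gpam and Dgat2 are wider in all 3 KLF15-null hearts than in all 4 WT hearts, and those of Agpat1 and Lpin1 overlap.

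The probe sets most like Dgat2 1422677_at, by the root mean square distance over the 7 arrays between values centred on the WT mean, belonged to Gpcpd1 (distance 0.07), Hccs (0.10) and Kpna3 (0.11). Their differences, all past the threshold, were -1.99, -1.99 and -2.09. With 2 groups of arrays this measure mainly finds genes with a fall of the same size.

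Markers of other cell types that make triglyceride were examined, since whole hearts can hold fat, and since in bulk tissue fewer cells of a type and less RNA per cell cannot be told apart. Of 8 adipocyte markers Adipoq, Lep, Cidec and Ucp1 were below the filter level, with Adipoq at 4.47 in WT and 4.68 in KLF15-null hearts. The summed linear signal of the 8, most of it from Fabp4, was 7370 to 9170 in WT and 7770 to 8530 in KLF15-null hearts, with overlap. Since it rests mostly on a single gene, this sum does not measure how many adipocytes were present. Of the 4 tested, Lipe, the hormone-sensitive lipase, and Cidea, a lipid droplet protein, fell by 1.12 and 0.98, and Fabp4 and Retn did not pass the threshold, at 0.12 and 0.06. The hepatocyte markers Alb and Fgb were below the filter level. The 6 hepatocyte markers summed to 296 to 345 in WT and 290 to 293 in KLF15-null hearts. Apoa1 and Apoa2 were lower, by differences of -0.34 and -0.28, with KLF15-null means of 5.64 and 5.68, below the filter level.

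Markers of the other cell types did not move as whole lists. Of 7 endothelial markers 3 fell (differences of -2.24 for Pecam1, -1.44 for Emcn and -0.77 for Tie1) and 0 rose, while their sums overlapped (1400 to 2110 in KLF15-null against 2070 to 2570 in WT hearts). The fall of Pecam1 was larger than those of Gpam and Dgat2, while Cdh5, Kdr, Tek and Vwf did not pass the threshold, at -0.14, 0.46, 0.02 and 0.32. Sums of 7 fibroblast markers were lower in KLF15-null hearts (3720 to 4000 against 4910 to 8500). Dcn and Lum fell (differences of -1.25 and -1.38), Pdgfra rose by 0.53 and the other 4 did not pass the threshold. Most of the WT sum came from Dcn and Lum, with WT means of 11.82 and 10.21, so the lower sum rests on these 2 genes. Sums of 7 neutrophil markers were higher (876 to 1050 against 569 to 678), where S100a8 and S100a9 rose by 2.19 and 1.41. The other 5 neutrophil markers lay between -0.17 and 0.09 and were either not past the threshold or, for Camp and Mpo, below the filter level. Of 10 macrophage markers 8 were tested, of which 3 rose, Cd14 by 1.64, Lyz2 by 1.25 and Csf1r by 0.90. Another 2 fell, with C1qa at -1.24 and C1qb at -0.77. Itgam and Fcgr1 were below the filter level and differed by 0.04 and 0.97. Fcgr1 read 5.21 to 5.85 in KLF15-null against 4.39 to 4.68 in WT hearts. Sums of the 10 macrophage markers overlapped (4450 to 6280 against 2700 to 4590), as did those of 8 skeletal muscle markers (6760 to 12500 against 9340 to 11600). Of these 8, Myh4, Myh1, Tnnt3 and Actn3 were below the filter level, and 0 of the 4 tested were called. Most of the skeletal muscle sum came from Ckm, so it does not measure how much skeletal muscle was present. These markers were named after their values were seen. The part of these cell types in the falls of Gpam and Dgat2 was not tested.

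Other enzymes of the pathway moved both ways, each gene being read on its brightest tested probe set, where 19.6% of 8404 genes were lower and 27.4% higher. Of 11 further acyltransferase and lipin family genes 4 fell, 4 rose and 3 missed the threshold, with a median of -0.08. Abhd5, among those that missed it, fell by 0.74 on its dimmer probe set, past the threshold. Lpcat3, which puts polyunsaturated chains into phospholipid, fell by 1.42 (SE 0.15, limma adjusted p = 5.10e-05), with 7.38 to 7.96 in KLF15-null against 9.02 to 9.27 in WT hearts. Gpat4, the glycerol-3-phosphate acyltransferase of the endoplasmic reticulum, fell by 0.88 (SE 0.11, limma adjusted p = 0.000174), and its dimmer probe set, below the filter, differed by -0.01. Lpin2 of the lipin family rose by 0.65, while another of its probe sets differed by -0.12, not past the threshold. Lpgat1, which acylates lysophosphatidylglycerol, rose by 0.83 on its brightest probe set and fell by 0.85 on another. The other calls, outside the naming rule and named after their values were seen, were Agpat5 at 0.40, Tmem68 at 0.42, Lclat1 at -0.46 and Mboat7 at -0.92.

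Glycerol 3-phosphate supply had 1 of 4 genes lower and 0 higher, the aquaglyceroporin gene Aqp7 at -1.12 on a cross-hybridizing _x_at probe set. The KLF15-null mean of that probe set, 5.10, was below the filter level, so background may limit this value too. Gpd1, not called on its brightest probe set, differed by -0.27 and 0.55 on dimmer ones, both past the threshold. Of 8 genes that turn over phosphatidate and diacylglycerol 1 was higher and 1 lower. Dgkz, a diacylglycerol kinase, rose by 1.27 with its other probe set at -0.26, not past the threshold. The phospholipase D gene Pld2 fell by 0.41. Dgke, not called on its brightest probe set, fell by 0.47 on a dimmer one, past the threshold. The KLF15-null mean there was 5.65, below the filter level.

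In the phosphatidylcholine and phosphatidylethanolamine branch, which draws on the same diacylglycerol as Dgat2, 3 of 9 genes fell, 2 rose and 4 missed the threshold. Of the 4 that missed it, Chpt1 differed by -1.43 and 0.60 on dimmer probe sets, both past the threshold. Ptdss2 differed by -0.94, -0.51 and -0.45 on dimmer probe sets, all past the threshold. The -0.94 came with a KLF15-null mean of 5.26, below the filter level. Pcyt1a, the rate-limiting enzyme of phosphatidylcholine synthesis, fell by 1.68 (SE 0.13, limma adjusted p = 8.49e-06), from 8.72 ± 0.18 (SD, n = 4) to 7.04 ± 0.15 (SD, n = 3). Unlike Gpam and Dgat2, it fell on every one of its probe sets, the other 3 by 0.86, 1.85 and 0.65. The KLF15-null mean behind the 1.85 was 5.53, below the filter level, so background may limit that value. Ptdss1, a phosphatidylserine synthase, fell by 0.48, though another of its probe sets rose by 1.24. Cept1, the choline and ethanolamine phosphotransferase, and Etnk1, an ethanolamine kinase, rose by 0.68 and 0.48. After quantile and after cyclic loess normalization 5 genes of this list were lower, where 21.9% and 23.1% of all genes were.

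The CDP-diacylglycerol branch to phosphatidylinositol and cardiolipin was split, as 4 of its 8 genes rose, 2 fell and 2 missed the threshold (median 0.34). Lclat1, at -0.46, is counted as a fall both here and among the further acyltransferases above. Cds2, which makes CDP-diacylglycerol from phosphatidate, rose by 1.87 on a cross-hybridizing _x_at probe set (SE 0.16, limma adjusted p = 1.70e-05). Its other probe sets past the filter differed by 0.48, 0.89 and 0.04, the last not past the threshold. Cdipt, the phosphatidylinositol synthase, rose by 1.81 on an _s_at probe set (SE 0.18, limma adjusted p = 3.89e-05), with its other probe set at 0.21, not past the threshold. Ptpmt1, a mitochondrial phosphatase of cardiolipin synthesis, rose by 0.44. Hadha, which also remodels cardiolipin beside its role in β-oxidation, fell by 1.84. Pgs1, not called on its brightest probe set, differed by 0.51 and 0.89 on dimmer ones, both past the threshold.

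Of 13 regulators of lipid synthesis genes 5 fell, 3 rose and 5 missed the threshold. Srebf1, which drives Gpam and other lipogenic genes, rose by 0.94 (SE 0.13, limma adjusted p = 0.000254), with 8.64 to 8.88 in KLF15-null and 7.58 to 8.02 in WT hearts. Cebpb rose by 1.54, and its other probe set differed by -0.32, not past the threshold. Ppara fell by 2.13. Of the 5 tested probe sets of Ppargc1a the brightest differed by -1.80 and another pair by -1.52 and -2.31, all lower. The last 2, at 0.04 and -0.18, were not past the threshold. The KLF15-null mean behind the -2.31 was 5.11, below the filter level. In the list of lipin 1 partners and regulators, which shares Ppara, Ppargc1a and Nr3c1 with the list of regulators, 3 of 6 were lower and 2 higher. Nr3c1, the glucocorticoid receptor, fell by 0.93 with another probe set at -0.13, not past the threshold. Mtor rose by 0.36 with its other probe set at -0.05, not past the threshold. The other gene counted as higher, Cnep1r1, rose by 0.40, while its dimmer probe set fell by 1.20. Both changes of Cnep1r1 passed the threshold.

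**Figure D4:**
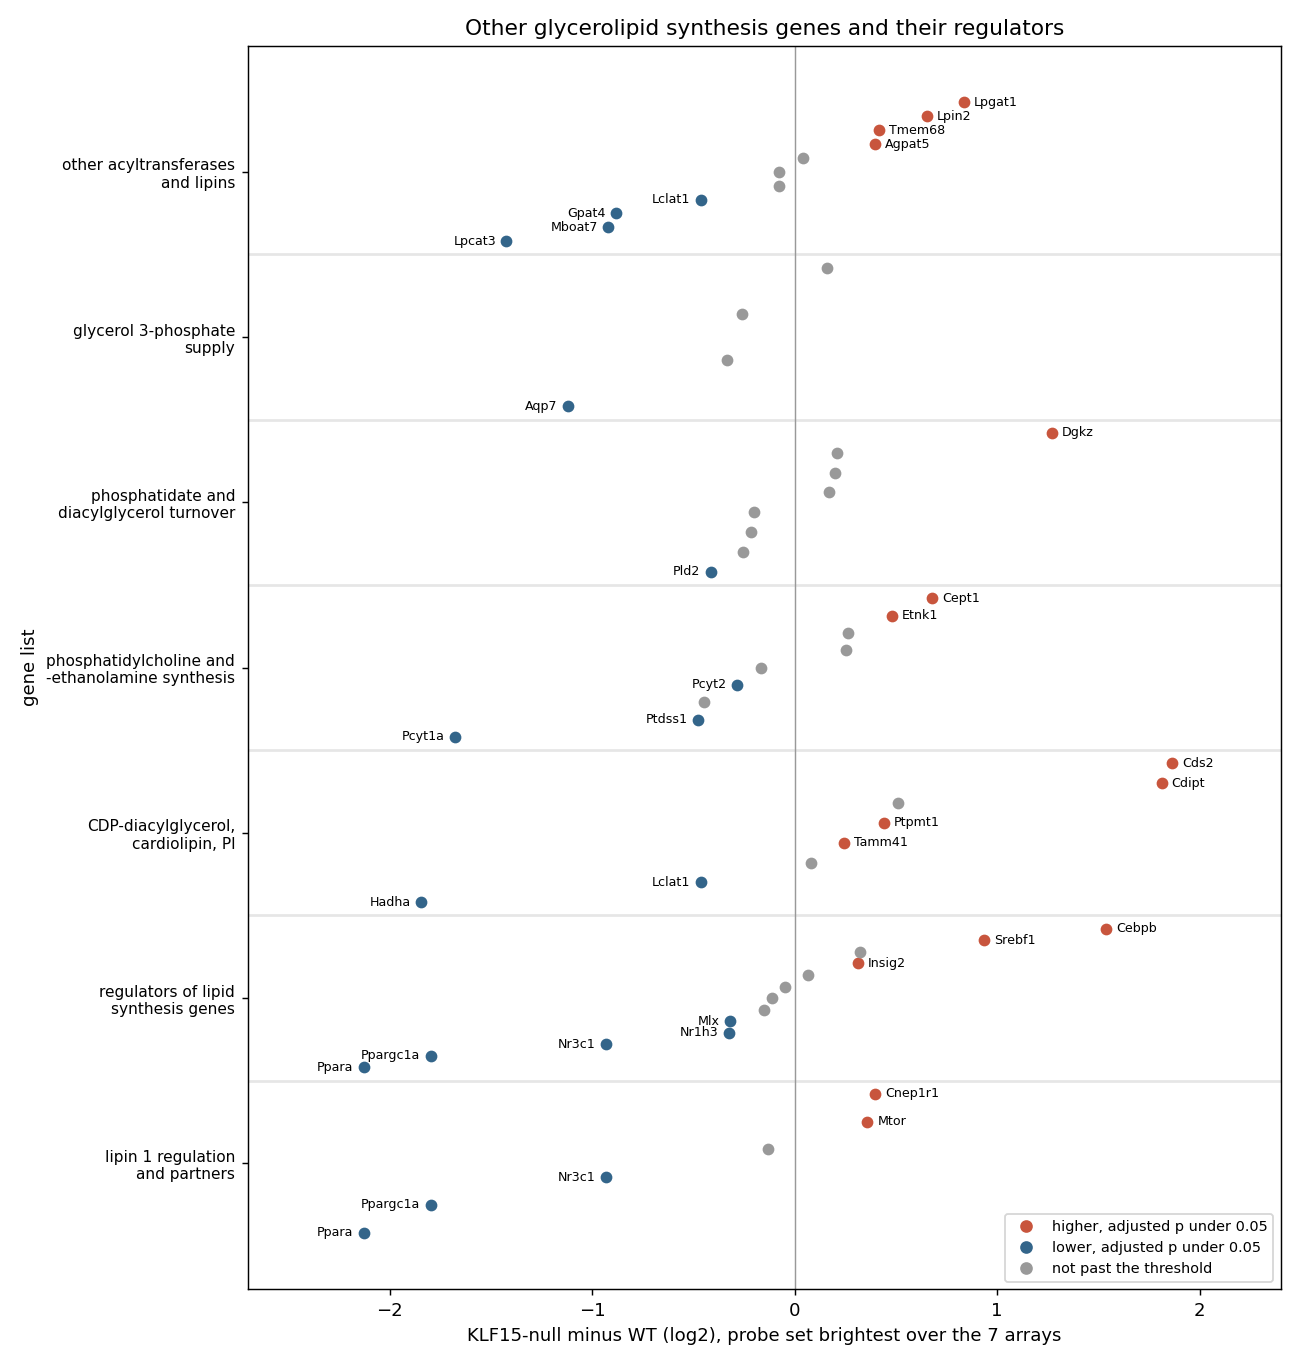
KLF15-null minus WT difference on the log2 scale (horizontal axis) of each gene, read on its brightest tested probe set, by gene list (vertical axis). Each list with over 4 genes holds named genes on both sides of 0, from Ppara at -2.13 to Cds2 at 1.87, and grey points did not pass the threshold.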

How the data were processed

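RNA of mouse hearts, extracted with Trizol, was labelled by the one-cycle 3' kit and hybridized to Affymetrix arrays, per the labels' protocols. As deposited, the table gives a log2 signal for each probe set, judged by its range of 3.20 to 14.28. The submitters' processing notes name GCOS with no role; how signals were summarized and scaled is not given in those sources. They were used as deposited, since array medians lay within 0.15.

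Genes were named through the platform's annotation: it gave 20380 probe sets 1 symbol, 691 several and 1555 no symbol. RefSeq (GRCm38.p6) held the Entrez numbers of 20351, and 0 symbols differed.

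The 13576 probe sets with a 7-array mean at or above the 40th percentile (5.74) were compared between 3 KLF15-null and 4 WT arrays with limma 3.58.1 in R 4.3.3 (no covariate, intensity trend, two-sided, Benjamini-Hochberg over all of them, threshold 0.05). The procedure was tested on simulated data. Gaps between a gene's probe sets were tested by exact permutation and, added after seeing the data, by limma.

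Members, gene lists and marker lists were chosen with earlier results of these data known. The naming rule took all members, Klf15, up to 4 called genes per pathway list by smallest p, and the 3 probe sets nearest to the member with the largest fall; 0 members rose. Other genes were named after their values were seen. No set test was run. Alternatives were other filters, scalings, variance models and thresholds, a replicate block and leaving out each array.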

Additional observations from a re-analysis of the deposited data

Results flagged for a closer look

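In 2 of the 15 sets of 4 WT values examined, 1 array stood apart from the other 3 by Dixon's criterion (a gap to the nearest value that is large against the whole range), which chance alone meets in about 1 of 20. On the bright Gpam probe set 1419499_at WT replicate 3 read 11.82, against 11.40 to 11.45 on the others. On the Agpat1 probe set 1421024_at WT replicate 3 read 7.34 where the other 3 shared 1 value, so the range is tiny there.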

How the results depend on the processing

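The falls of Gpam 1425834_a_at (-1.64 to -1.39) and Dgat2 1422677_at (-2.19 to -1.86) passed the threshold under every alternative in which they were tested. The 60th percentile filter removed the Gpam probe set and left 1 member lower, with 2223 probe sets lower and 2944 higher in all. With each array left out 2 members were lower and 0 higher. In the same fits 2763 to 3396 of all 13576 probe sets tested were lower and 3132 to 3966 higher. Quantile normalization gave 4 lower members, where 25.7% of all probe sets tested were lower. The members near 0 changed sign with scaling. After quantile normalization they read -0.36 for Gpam 1419499_at, 0.037 for Agpat1 1421024_at, and -0.14 and -0.041 for Lpin1 1426516_a_at and 1418288_at. After cyclic loess normalization the same 4 read -0.28, 0.0076, -0.14 and -0.043. Median centring gave 0.055 for Agpat1 1421024_at, 0.090 for Agpat3 and 0.0057 for Dgat2 1422678_at. Array weights gave 0.034 for Agpat3, -0.23 and -0.061 for Lpin1 1426516_a_at and 1418288_at, 0.10 for Dgat1 and 0.097 for Dgat2 1422678_at. With single arrays left out the ranges were -0.0081 to 0.15 (Gpam 1419499_at), -0.12 to 0.051 (Agpat1 1421024_at), -0.24 to 0.25 (Agpat3), -0.080 to 0.22 and -0.019 to 0.21 (Lpin1 1426516_a_at and 1418288_at), -0.25 to 0.056 (Dgat1) and -0.21 to 0.15 (Dgat2 1422678_at). The cause of these shifts was not tested.

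The gap change ranged from 1.47 to 1.72 for Gpam, 1.66 to 2.21 for Dgat2 and -0.18 to 0.014 for Lpin1 with arrays left out. Quantile and cyclic loess normalization gave 1.12 and 1.20 for Gpam, below that range, and 1.67 and 1.80 for Dgat2. By the added limma fit those of Gpam (1.59) and Dgat2 (1.91) passed the threshold. Among the lists, quantile normalization gave 1 glycerol 3-phosphate supply gene higher, 2 turnover genes lower, 5 phosphatidylcholine and phosphatidylethanolamine genes lower and 1 lipin 1 partner higher. Cyclic loess normalization gave 2, 5 and 1 for the last 3. Median centring gave 1 supply gene and 2 turnover genes higher and 3 regulators lower. Under each of these scalings 5 genes of the CDP-diacylglycerol list and 4 regulators were higher. Quantile and cyclic loess normalization each gave 4 regulators lower. The phosphatidylcholine and phosphatidylethanolamine list had 3 genes higher after quantile normalization and after median centring, and 2 lower after median centring.

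For the replicate numbers 1 to 3 shared by the groups, deviations from the group means correlated at -0.11, 0.00 and 0.19. Only for number 3 was the WT array of the same number the best match of the KLF15-null array. So few arrays cannot decide whether the numbers pair them. With the replicate block 2 members were lower and 0 higher, with Gpam 1425834_a_at at -1.48 and Dgat2 1422677_at at -2.05, and 3042 probe sets were higher and 2726 lower in all, against 3637 and 3235 without it. The number of arrays, 3 in 1 group, limits all intervals, and dim signals have no detection call.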
